A study of Bombyx mori with 12 samples.

Results

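R1Bm and R2Bm are the non-LTR retrotransposons (LINEs) of the silkworm Bombyx mori that insert into the ribosomal RNA genes. They were taken from the tables by name, 2 of 1716 transposon entries, and each name occurs once, R1Bm under the superfamily label R1 and R2Bm under R2. The cells were BmN4, an ovary-derived silkworm line grown at 26 °C. Both tables list transposons, so germ cell markers and the targeted genes were not analysed here. All cells received 500 pmol of siRNA by nucleofection, more than once, and were collected after 10 days in culture. The siRNA was directed at luciferase in the control (LucKD), at the PIWI protein Siwi (SiwiKD), at the partner PIWI protein Ago3 (Ago3KD) or at Maelstrom (MaelKD). RNA of LucKD, SiwiKD and MaelKD cells, titled as total RNA, was sequenced with a stranded mRNA kit. Whether poly-A RNA was selected is not stated in the sources used here, and its part in the levels of elements inside rRNA genes was not tested. Small RNA of 22 to 35 nt was sequenced from anti-Flag immunoprecipitates, titled as Siwi piRNA, of LucKD, Ago3KD and MaelKD cells. The labels describe plasmid transfection for expressed proteins, but no source used here gives the promoter or says how the Flag tag was carried. Each group had 2 libraries, 12 in all, and the labels do not say if these were separate cultures. The p-values therefore reflect the variation among these libraries alone, and it may be technical. Library totals were 32487082 to 45155711 reads in RNA and 1763511 to 4806161 reads in small RNA.

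Each element encodes a reverse transcriptase with an endonuclease that cuts a particular site of the large-subunit rRNA gene, of the apurinic endonuclease type in R1 and of the restriction enzyme type in R2. The R2Bm protein is the enzyme on which target-primed reverse transcription, the copying of element RNA directly onto nicked chromosomal DNA, was worked out. In Drosophila, R1 and R2 are transcribed together with the rRNA gene that holds them. PIWI proteins find transposon transcripts through the piRNAs that they carry. In silkworm germ cells Siwi and Ago3 cut transposon RNA in turn, each cut giving rise to piRNA for the partner, and Maelstrom acts in the same pathway.

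In control cells R1Bm and R2Bm were among the LINE elements with the most RNA. RNA values are RPKM, reads scaled to entry length and library size. R1Bm stood at 58.4 and 53.7 RPKM in the 2 control libraries, from 13255 and 9099 reads. R2Bm stood at 70.9 and 58.9 RPKM, from 13702 and 8495 reads. Among the 78 LINE entries with a mean of at least 1 RPKM over the 6 RNA libraries, R2Bm ranked 1 and 2 in the control libraries and R1Bm 2 and 3. Among all 1716 entries they ranked 26 to 31. R1Bm held 1.14% ± 0.0353 (SD, n = 2) of the reads on listed transposons, and R2Bm held 1.12% ± 0.116.

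The Siwi immunoprecipitates of control cells held small RNA of both elements at nearly equal density. Small RNA values are RPM, reads scaled to library size and not to length. R1Bm gave 2387 and 2347 RPM in the control libraries and R2Bm 2141 and 2220.0 RPM. Lengths recovered from the RPKM values, 5139 nt for R1Bm and 4372 nt for R2Bm, turn these into 461 ± 5.55 and 499 ± 12.8 RPM per kb (SD, n = 2). On that scale R1Bm ranked 82 and 83 and R2Bm 76 and 77 among 490 entries with RNA of at least 1 RPKM on average. Among their LINE entries, R1Bm ranked 14 in both libraries and R2Bm 12 and 13. Small RNA density divided by RNA level, a ratio of group means from unpaired libraries, was 8.22 for R1Bm and 7.68 for R2Bm. The median of that ratio was 11.4 over 484 entries and 14.3 over 78 LINE entries. R1Bm ranked 262 and R2Bm 264 among all entries, slightly below the middle, and 46 and 48 among LINE entries. In MaelKD cells the ratio was 7.43 for R1Bm and 7.48 for R2Bm, with a median of 6.81 over 486 entries and 9.06 over 77 LINE entries. R1Bm ranked 239 and R2Bm 238 among all entries, close to the middle, and 42 and 41 among LINE entries.

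**Figure D1:**
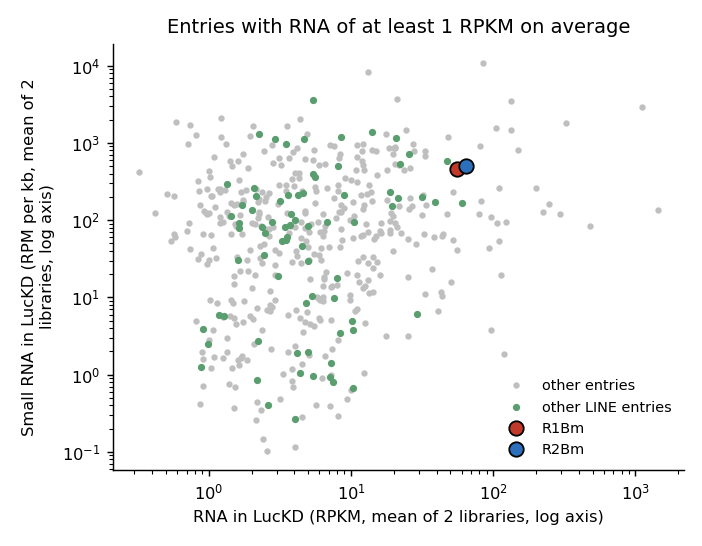
Anti-Flag (Siwi) small RNA (RPM per kb) against RNA (RPKM) in LucKD cells, means of 2 libraries on log axes, for 484 transposon entries with RNA of at least 1 RPKM on average over 6 libraries and values above 0. R1Bm (56.0 RPKM, 461 RPM per kb) and R2Bm (64.9 RPKM, 499 RPM per kb) lie side by side near the right edge of the LINE entries.

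The RNA of neither element changed past the test in any of the 3 RNA comparisons. R1Bm was at 50.4 and 40.3 RPKM in SiwiKD and at 51.8 and 45.2 RPKM in MaelKD. All 4 of these values were below both controls, and the SiwiKD and MaelKD values overlapped each other. R2Bm was at 74.1 and 58.9 RPKM in SiwiKD and at 71.0 and 65.6 RPKM in MaelKD. Its groups overlapped in every pair. The order of means for R1Bm was LucKD (56.0 ± 3.34 RPKM), MaelKD (48.5 ± 4.68) and SiwiKD (45.4 ± 7.15), and for R2Bm MaelKD (68.3 ± 3.79), SiwiKD (66.5 ± 10.7) and LucKD (64.9 ± 8.52), with SDs over 2 libraries. No neighbours in the R2Bm order differed beyond their spread.

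**Figure D2:**
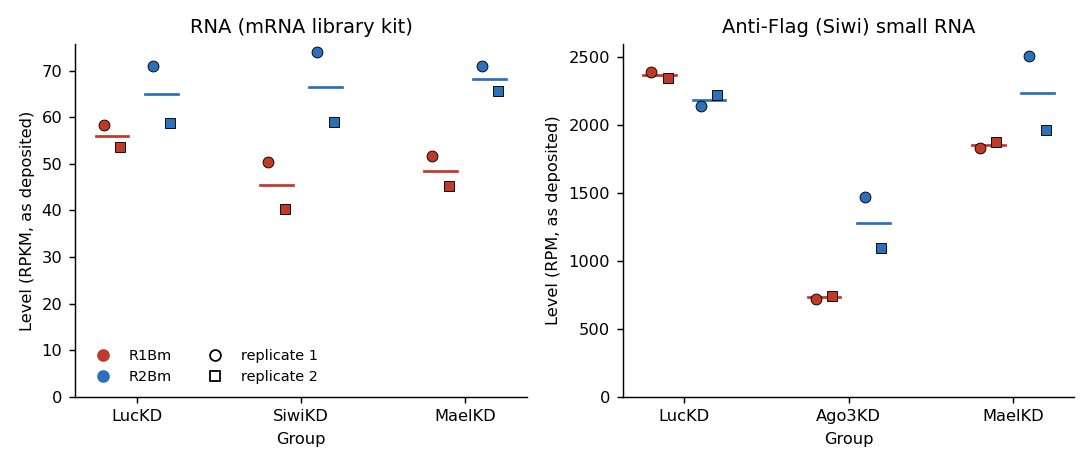
Level of R1Bm (red) and R2Bm (blue) in every library, as RPKM in RNA on the left and RPM in anti-Flag (Siwi) small RNA on the right, by group. Circles are replicate 1, squares replicate 2 and lines group means (n = 2). RNA of both elements stays within 40.3 and 74.1 RPKM, while small RNA of R1Bm in Ago3KD, 722 and 742 RPM, lies apart from its other groups.

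Changes were tested on log2(value + 1) with limma over all entries with a mean of at least 1, 490 in RNA and 1004 in small RNA, with Benjamini-Hochberg adjustment and a threshold of 0.05. Both elements passed that filter in both tables. Against control, R1Bm RNA differed by -0.31 ± 0.19 (log2, SE) in SiwiKD, with a 95% interval of -0.68 to 0.07 (limma, adjusted p = 0.243). R2Bm RNA differed by 0.03 ± 0.19 in SiwiKD, with an interval of -0.35 to 0.41 (limma, adjusted p = 0.918). With the deposited scaling, a rise of either element by more than 1.33-fold in SiwiKD thus lay outside these intervals. Most of the 29.6 degrees of freedom behind the intervals were borrowed by limma from other entries. Intervals from each element's own spread over 2 libraries a group were not computed. In that comparison 27.3% of tested entries were called, and 19.8% had both SiwiKD libraries below both controls as R1Bm did. With each library scaled to its listed transposons, a choice made after the data were seen, R1Bm RNA was called lower in SiwiKD (log2 change -0.69, limma, adjusted p = 0.00956). R2Bm RNA then took the opposite sign, without a call (-0.35, adjusted p = 0.190). That scaling also moved the median log2 change of all tested entries from 0.15 to -0.16. Listed transposons held 2.47 to 2.57% of RNA reads in LucKD, 3.12 to 3.49% in SiwiKD and 2.77 to 3.08% in MaelKD. Dividing by these shares lowers every entry in both knockdowns relative to control, so the call is no separate evidence of less R1Bm RNA.

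RNA of neither element was called after Mael knockdown. R1Bm RNA differed from control by -0.21 ± 0.19 (log2, SE), with a 95% interval of -0.59 to 0.17 (limma, adjusted p = 0.628). R2Bm RNA differed by 0.08 ± 0.19, with an interval of -0.31 to 0.46 (limma, adjusted p = 0.910). Of the tested entries 11.0% were called, and 23.9% had both MaelKD libraries below both controls as R1Bm did. Between MaelKD and SiwiKD, R1Bm differed by 0.10 ± 0.19 and R2Bm by 0.05 ± 0.19 (limma, adjusted p = 0.805 and 0.894), in a comparison that called 20.4% of entries. Both elements were higher in replicate 1 than in replicate 2 in all 3 RNA groups, which held for 8.16% of the tested entries. A comparison of RNA levels in bulk cells cannot tell fewer transcribing cells from less RNA per cell.

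With the deposited scaling, relatives of the ribosomal elements gave no RNA call in any of the 3 RNA comparisons either. Relatives here are entries whose superfamily label starts with R1 or R2. That takes in the label R2-R4, carried for instance by Dong and Dong-2_BM. Of 27 entries with an R1 or R2 superfamily label, both elements included, 11 were tested, and none of them was higher or lower in SiwiKD, in MaelKD or between the 2 (limma). Those comparisons called 27.3%, 11.0% and 20.4% of all tested entries. Whether the 11 differ from these shares was not tested. The median log2 change of the 11 was -0.18 in SiwiKD against 0.15 over all tested entries, and -0.21 in MaelKD against -0.01. Without R1Bm and R2Bm it was -0.18 and -0.30. With trimmed-mean scaling 2 of the 11 were called lower in SiwiKD, as were 43 of all 490 entries. With scaling to listed transposons 3 were, R1Bm among them, as were 66 of all 490. The latter scaling also called 2 lower in MaelKD, TRAS1 and the R1-labelled entry CATS (limma, adjusted p = 0.0462 and 0.0351). It called 28 of all 490 entries lower there. SART1 and TRAS1, R1-type elements that insert into telomeric repeats, were at 8.88 ± 0.620 and 10.3 ± 2.50 RPKM in control cells and at 12.9 ± 1.92 and 8.87 ± 0.916 RPKM in SiwiKD (SD, n = 2). TRAS3, another telomeric element, was at 29.3 ± 7.21 and 21.4 ± 1.94 RPKM. It was called lower in SiwiKD under both other scalings (limma, adjusted p = 0.0166 with trimmed-mean scaling and 0.00363 with scaling to listed transposons). Of all 78 tested LINE entries 17 were higher and 2 lower in SiwiKD, and 3 were higher in MaelKD. Over all 490 entries 119 were higher and 15 lower in SiwiKD, and 41 were higher in MaelKD. Trimmed-mean scaling gave 13 higher and 4 lower in SiwiKD. Scaling to listed transposons gave 6 and 6 in SiwiKD, where the LINE median went from 0.23 to -0.10, and 1 higher and 5 lower in MaelKD. Over all 490 entries, trimmed-mean scaling gave 90 higher in SiwiKD. Scaling to listed transposons gave 62 higher there and 28 in MaelKD.

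Ago3 knockdown lowered the Siwi-bound small RNA of both elements, and of R1Bm by the greater amount in these libraries. R1Bm was at 722 and 742 RPM in Ago3KD, from 1885 and 1615 reads, against 2387 and 2347 RPM in control. R2Bm was at 1467 and 1093 RPM, from 3831 and 2381 reads, against 2141 and 2220.0 RPM. For both elements the Ago3KD libraries lay below both controls, as they did for 50.7% of tested entries, and the 2 Ago3KD libraries of R2Bm stood farther apart than those of R1Bm. Per length, R1Bm fell to 142 ± 2.76 and R2Bm to 293 ± 60.4 RPM per kb (SD, n = 2).

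R1Bm small RNA fell 3.23-fold in Ago3KD (log2 change -1.69 ± 0.08 (SE), limma, adjusted p = 7.52e-22) and R2Bm small RNA fell 1.72-fold (-0.78 ± 0.10, limma, adjusted p = 4.87e-09). Both members were thus among entries called lower, which made up 40.6% of those tested. The change of R1Bm was lower than that of all but 43 of the 1004 entries, and R2Bm had 270 entries below it. The median log2 change was -0.28 over all entries and -0.61 over 172 LINE entries, and 0.01 and -0.31 with trimmed-mean scaling. The 2 log2 changes remained falls past the threshold with trimmed-mean scaling (-1.37 and -0.46) and with scaling to listed transposons (-1.46 and -0.55).

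The test of R2Bm borrowed much of its precision from other entries. Its own log2 SD within groups was 0.23, and limma used 0.10 after moderation. The own SD of R1Bm was 0.02, with 0.08 used. With each entry's own spread in place of the moderated one, a check added after the data were seen, R2Bm was not called in Ago3KD (adjusted p = 0.0844 from the unmoderated linear fit in limma), while R1Bm was (adjusted p = 0.00311). The R2Bm call was also lost with no filter on low values (limma, adjusted p = 0.0757).

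**Figure D3:**
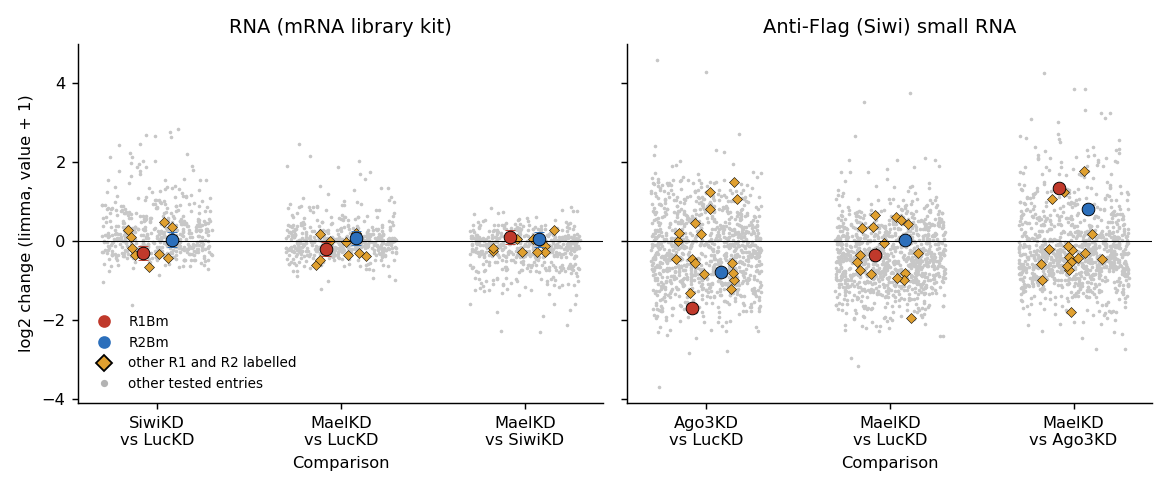
Log2 change of every tested entry in 3 comparisons of RNA (490 entries) and 3 of anti-Flag (Siwi) small RNA (1004 entries), with R1Bm in red, R2Bm in blue (bars are SEs, often smaller than the point) and the other entries with an R1 or R2 label as diamonds. Both elements lie near 0 in RNA, and in small RNA R1Bm lies at -1.69 and R2Bm at -0.78 for Ago3KD against LucKD.

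After Mael knockdown, as deposited, Siwi-bound small RNA of R1Bm was slightly lower than in control and that of R2Bm was not called. R1Bm was at 1828 and 1873 RPM in MaelKD, from 5527 and 3452 reads, with both libraries below both controls. R2Bm was at 2504 and 1964 RPM, from 7573 and 3619 reads, on either side of the controls. R1Bm fell by 0.36 ± 0.08 on the log2 scale, a fall of 1.28-fold (limma, adjusted p = 9.82e-05), in a comparison that called 44.4% of entries lower and left 57.9% with both MaelKD libraries below both controls. R2Bm differed by 0.02 ± 0.10, with a 95% interval of -0.17 to 0.22 (limma, adjusted p = 0.842). That interval rests on the moderated log2 SD of 0.10, below the 0.23 of R2Bm itself. The SE was 0.20 with moderation that allows for outlying spread and 0.23 with own spread, so the interval may be too narrow.

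The direction of the R1Bm result in MaelKD depended on how libraries were scaled. The median log2 change of all tested entries was -0.44 as deposited, 0.07 with trimmed-mean scaling and -0.60 with scaling to listed transposons, which held 42.4 to 43.7% of the reads in LucKD and 49.2 to 49.4% in MaelKD. R1Bm was at -0.36, 0.23 and -0.55 in these scalings, past the threshold in each (limma, adjusted p = 9.82e-05, 0.0193 and 9.29e-08). R2Bm was at 0.02, 0.61 and -0.17, past the threshold with trimmed-mean scaling alone of the 3 (adjusted p = 8.26e-06 there, limma). Set against the median entry of the same scaling, both elements were above it in each of the 3. A change of scaling moves an entry and the median together, so these are not 3 separate results. As deposited, 546 of 1004 entries had a lower change than R1Bm, which was thus near the middle, and 714 than R2Bm.

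**Figure D4:**
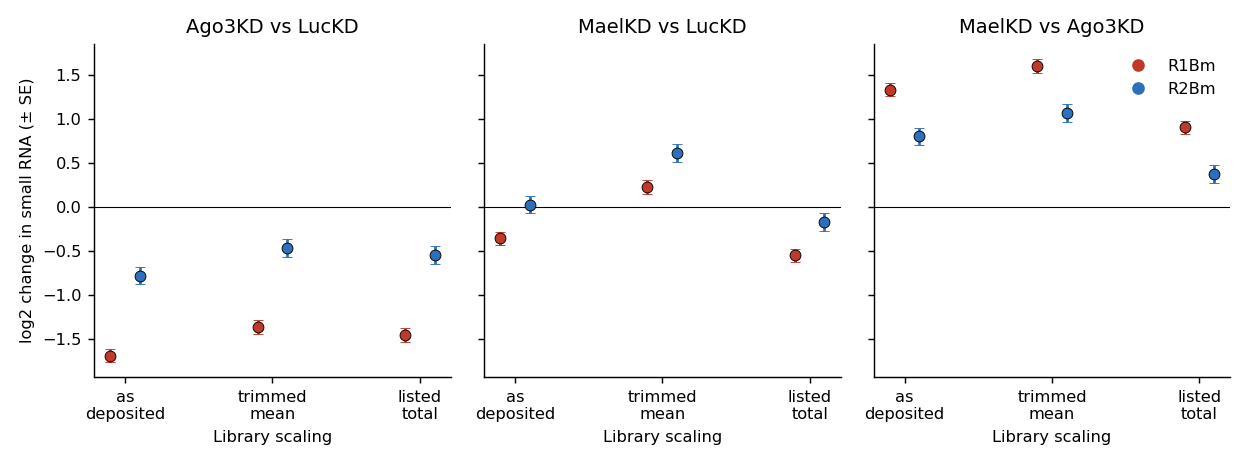
Log2 change in anti-Flag (Siwi) small RNA of R1Bm (red) and R2Bm (blue) with SE in 3 comparisons, under the authors' scaling, trimmed-mean scaling and scaling to the reads on listed transposons. In MaelKD against LucKD the sign changes with the scaling (R1Bm -0.36, 0.23 and -0.55), and in the other comparisons it does not.

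Between MaelKD and Ago3KD, both elements had more Siwi-bound small RNA in MaelKD, and no library of one group overlapped the other. R1Bm was 2.53-fold higher (log2 difference 1.34 ± 0.08 (SE), limma, adjusted p = 5.45e-19) and R2Bm 1.75-fold higher (0.81 ± 0.10, limma, adjusted p = 2.67e-09). Of all entries 20.7% were called higher in this comparison, and 25.9% had both MaelKD libraries above both Ago3KD libraries. The median difference over all entries was -0.34, and 939 of 1004 entries had a lower value than R1Bm and 874 than R2Bm. With own spread alone the R2Bm call was lost here too (adjusted p = 0.0870, unmoderated fit in limma), and so it was when entries of low value were kept (limma, adjusted p = 0.0749). Scaling moved the size of these differences. With trimmed-mean scaling they were 1.60 for R1Bm and 1.07 for R2Bm, and with scaling to listed transposons 0.91 and 0.38, all past the threshold. In the deposited scaling the order of small RNA levels was LucKD, MaelKD and Ago3KD for R1Bm, with means of 2367 ± 28.5, 1851 ± 32.3 and 732 ± 14.2 RPM and no overlap between neighbours, while trimmed-mean scaling put MaelKD above LucKD. For R2Bm it was MaelKD, LucKD and Ago3KD, with means of 2234 ± 382, 2181 ± 55.9 and 1280.0 ± 264 RPM, and the first 2 overlapped.

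The balance between the elements does not depend on library scaling, since both are read from the same library. In RNA the ratio of R1Bm to R2Bm was 0.823 and 0.911 in LucKD, 0.681 and 0.684 in SiwiKD, and 0.729 and 0.688 in MaelKD. Both control libraries stood above all 4 knockdown libraries. In small RNA the ratio of RPM values was 1.12 and 1.06 in LucKD, 0.492 and 0.678 in Ago3KD, and 0.730 and 0.954 in MaelKD. Again both control libraries stood above all 4 others, and Ago3KD stood below MaelKD in each library. On the log2(value + 1) scale the ratio was lower than in control by 0.34 in SiwiKD RNA, 0.28 in MaelKD RNA, 0.91 in Ago3KD small RNA and 0.38 in MaelKD small RNA. Each of these comparisons gave an exact permutation p of 0.333 (two-sided), the smallest that 2 libraries against 2 allow, so none could pass the threshold, and comparisons with the same control share its libraries. The size of the MaelKD small RNA difference depended on single libraries, at -0.19 without MaelKD replicate 1 and -0.57 without MaelKD replicate 2. Between MaelKD and Ago3KD the log2 ratio differed by 0.53, and by 0.30 to 0.76 without single libraries, lowest without Ago3KD replicate 1. That R1Bm passed a test in MaelKD and R2Bm did not is therefore no shown difference between them.

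**Figure D5:**
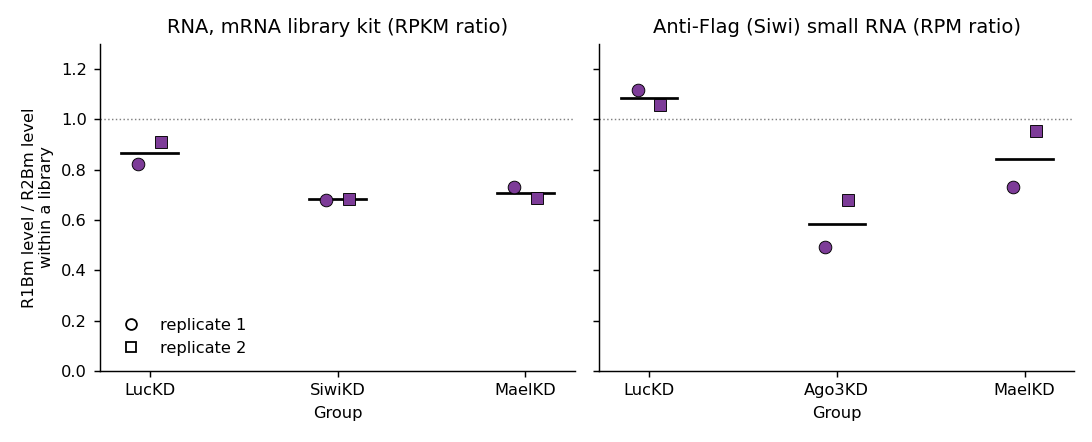
R1Bm level divided by R2Bm level within each library, for RNA (RPKM, left) and anti-Flag (Siwi) small RNA (RPM, right), by group. Circles are replicate 1, squares replicate 2 and lines group means (n = 2). The control libraries, 0.823 and 0.911 in RNA and 1.06 and 1.12 in small RNA, lie above every knockdown library of the same panel.

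Small RNA of the relatives went both ways, as did that of all tested entries. Of 27 entries with an R1 or R2 label 19 were tested, and in Ago3KD 10 of them were lower and 4 higher, both ribosomal elements counted (limma). These were 52.6% and 21.1%, against 40.6% and 16.8% over all tested entries. The median of the 19 log2 changes was -0.45, that of all entries -0.28. R1Bm had the largest fall past the threshold among them, and the largest rise was that of TRAS1, from 5.31 ± 1.90 to 16.5 ± 3.89 RPM (log2 change 1.49). TRAS1 rests on few reads, at 6.66 and 3.97 RPM in the control libraries, where 3 reads were 0.624 and 1.70 RPM. TRAS3 rose too, from 49.2 ± 6.98 to 68.2 ± 8.75 RPM. SART1 fell from 1420.2 ± 3.63 to 809 ± 84.0 RPM, SARTBm3 from 418 ± 16.3 to 284 ± 6.97 RPM and TRASY_partial from 16.5 ± 3.22 to 6.01 ± 0.705 RPM. All 5 of these TRAS and SART entries kept their calls under both other scalings.

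In MaelKD 8 of the 19 R1 and R2 labelled entries were lower and 3 higher, and their median log2 change was -0.31, where that of all entries was -0.44. The counts were 42.1% and 15.8%, close to the 44.4% and 11.8% over all tested entries. With trimmed-mean scaling 4 were lower and 7 higher, and with scaling to listed transposons 9 and 1. Over all 1004 entries these scalings gave 194 lower and 261 higher, and 505 and 81. The largest fall among called entries was that of TRASY_partial, to 4.12 ± 3.53 RPM (log2 change -1.95). That entry rests on few reads, at 6.61 and 1.63 RPM in the MaelKD libraries, the latter from 3 reads. The largest rise among called entries was that of R1-1_BM, from 28.5 ± 2.97 to 44.0 ± 6.98 RPM, a call lost with scaling to listed transposons. SART1 went to 742 ± 3.17 RPM, SARTBm3 to 249 ± 0.942 RPM and TRAS3 to 33.8 ± 3.23 RPM, all called lower, of which SARTBm3 and TRAS3 were not called with trimmed-mean scaling. TRAS1 was at 3.99 ± 0.498 RPM in MaelKD, without a call.

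R1Bm and R2Bm were 2 of the 5 labelled entries that were higher in MaelKD than in Ago3KD, while another 5 were lower. That was 26.3% each way, against 20.7% higher and 31.7% lower over all tested entries. The largest difference upward was that of R1-3_BM, an R1-labelled entry of similar abundance, at 3019 ± 24.5 RPM in MaelKD and 885 ± 31.5 RPM in Ago3KD. In control cells it was at 2076 ± 205 RPM, below its MaelKD level, whereas R1Bm was above its own in the deposited scaling and below it with trimmed-mean scaling. TRAS1 had the largest difference downward, -1.80 on the log2 scale, from few reads. It was at 3.64 and 4.34 RPM in the MaelKD libraries, where 3 reads were 0.992 and 1.63 RPM. Trimmed-mean scaling left 6 labelled entries higher and 3 lower, and scaling to listed transposons 5 and 11. Over all 1004 entries the counts were 263 and 201, and 130 and 545.

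Profiles over the 6 libraries of a table were compared by the root mean square difference of centred log2(value + 1), among 366 other entries in RNA and 752 in small RNA. This is a description, since the points share libraries and their scaling. In small RNA the entry most like R1Bm was BmTE_RM6-4101, a CR1-L2 LINE, with a difference of 0.11 and 493 to 1998 RPM. The unclassified entries BmTE_RM1-5 (188 to 529 RPM) and BmTE_RM5-3437 (5.05 to 19.1 RPM) followed at 0.13. For R2Bm the nearest were the unclassified BmTE_RM1-61, at 0.05, and BmTE_RM1-640, at 0.11, and the Helitron DNA transposon BmTE_RM1-125, at 0.12. Their levels were 7.35 to 16.9, 21.1 to 40.3 and 288 to 535 RPM. Likeness of the entries at low levels, BmTE_RM1-61 and BmTE_RM5-3437 above all, rests on few reads. R2Bm was at place 103 of 752 in the list of R1Bm, with a difference of 0.41 and a Pearson correlation of 0.89. In RNA the nearest to R1Bm were the unclassified BmTE_RM1-293, the Jockey LINE BmTE_RM1-25 and the unclassified BmTE_RM1-342 (0.08, 0.09 and 0.10), and R2Bm stood at place 13 with 0.16. Nearest to R2Bm in RNA were 3 LINE entries, Pakurin, trest1 and the Jockey element BmTE_RM3-31 (0.07, 0.09 and 0.10).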

How the data were processed

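The authors deposited RPKM for RNA and RPM for small RNA, units that the file headers name. The submitters' processing notes list STAR 2.7.9a, Trim Galore, Bowtie 1.3.0 and cutadapt 3.1, besides bedtools and SAMtools. No source used here gives their roles, the build, how strand was used in counting, or how reads with several matches were treated. Ribosomal elements vary between copies, so reads shared with similar entries make values uncertain. RPM values turned into whole reads, within 0.001, for 100% of values above 0. For RPKM, a search for totals and lengths gave whole reads within the same tolerance for all 978 entries with a value above 0. It started from the lengths in the names Kokubaru_6926bp and Moriya_7603bp. Values were fitted as log2(value + 1) with limma 3.58.1 in R 4.3.3 (eBayes with trend), all 6 libraries of a table sharing the spread, tests two-sided. Entries with a mean of at least 1 entered, and simulated data were tested first. The count test on recovered reads was edgeR 4.0.16, an alternative. No replicates were merged, since chi-square per entry between them was 3.69 to 51.7. Members and lists were chosen with earlier results of these data known. Named entries were both members, the tested telomeric entries, the largest called rise and fall among R1 and R2 labelled entries, and the 3 most similar profiles. No sequence of either element was used here.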

Additional observations from a re-analysis of the deposited data

How the results depend on the processing

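Over 10 alternatives (single libraries aside), 109 of 120 values of the 2 elements kept direction and call. Only scaling, the added constant and edgeR could change direction. Scaling to listed transposons, moderation that allows for outlying spread (robust) and own spread were added after the data were seen. Trimmed-mean scaling gave R2Bm -0.18 in SiwiKD RNA and 0.61 in MaelKD small RNA, and R1Bm 0.23 in MaelKD small RNA. Scaling to listed transposons gave R1Bm -0.69 and R2Bm -0.35 in SiwiKD RNA, and R2Bm -0.13 in MaelKD RNA and -0.17 in MaelKD small RNA. R2Bm small RNA lost its calls without a filter and with own spread, at unchanged log2 values of -0.78 (Ago3KD against LucKD) and 0.81 (MaelKD against Ago3KD). It kept both with robust moderation (limma, adjusted p = 0.0295 and 0.0299). The causes were not tested. Without single libraries R2Bm ranged from -0.13 to 0.19 (SiwiKD RNA), -0.0545 to 0.21 (MaelKD RNA), -0.12 to 0.21 (MaelKD against SiwiKD), -0.15 to 0.20 (MaelKD small RNA), -0.99 to -0.57 (Ago3KD) and 0.60 to 1.02 (MaelKD against Ago3KD). R1Bm RNA ranged from -0.46 to -0.15 (SiwiKD), -0.30 to -0.11 (MaelKD) and -0.0596 to 0.26 (MaelKD against SiwiKD), and no call of either element was lost without a library.

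Counts of called entries moved by over 1.5 times in places. In RNA they were 134 (SiwiKD), 54 (MaelKD) and 100 (MaelKD against SiwiKD), and became 45, 11 and 10 with no filter, 63, 31 and 42 with a mean of at least 10, and 42, 3 and 0 with own spread (limma without moderation). Beside that 0, 97 entries had an unadjusted p under 0.05, and edgeR called 111. Between MaelKD and SiwiKD trimmed-mean scaling gave 57 and listed-total scaling 60. Without single libraries the counts were 92 to 127, 19 to 43 and 38 to 84. MaelKD RNA gave 34, 30 and 19 without LucKD replicate 1, MaelKD replicate 1 and MaelKD replicate 2. MaelKD against SiwiKD gave 63, 61 and 38 without SiwiKD replicate 1, MaelKD replicate 1 and MaelKD replicate 2. In small RNA own spread gave 350 calls of 564 (MaelKD) and 334 of 526 (MaelKD against Ago3KD). Trimmed-mean scaling moved higher and lower calls from 119 and 15 to 90 and 43 in SiwiKD RNA, from 8 and 92 to 12 and 45 between MaelKD and SiwiKD, from 169 and 408 to 262 and 295 in Ago3KD, from 118 and 446 to 261 and 194 in MaelKD small RNA, and from 208 and 318 to 263 and 201 between MaelKD and Ago3KD. Listed-total scaling gave 62 and 66 in SiwiKD RNA, 28 and 28 in MaelKD RNA, 10 and 50 between MaelKD and SiwiKD, 247 and 338 in Ago3KD, 81 and 505 in MaelKD small RNA, and 130 and 545 between MaelKD and Ago3KD.

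Replicate numbers did not pair the libraries (correlation of deviations -0.05 to 0.05 across entries). The replicate block gave 148, 62 and 108 calls in RNA and 579, 567 and 528 in small RNA, and changed no call of either element. The ratio of both elements could not change sign without a library, as no groups overlapped. Its ranges were then -0.41 to -0.26 (SiwiKD RNA), -0.36 to -0.21 (MaelKD RNA) and -1.14 to -0.68 (Ago3KD).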
